A study of Mus musculus with 8 samples.

Results

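The miR-29 family is described here by its 3 guide strands, mmu-miR-29a-3p, mmu-miR-29b-3p and mmu-miR-29c-3p (written without the species prefix from here on), which are 3 of the 1978 mature mouse miRNAs in the deposited table. They were chosen by name. Small RNA was sequenced from 3A cells, hepatocytes of a mouse line that forms no tumours, and from the extracellular vesicles (EVs) that they released into their medium over 72 h. The cells had been infected with a retroviral vector carrying either a scrambled control shRNA (shCTR) or an shRNA against PCBP2 (shPCBP2), an RNA-binding protein, and were selected with puromycin at 2 µg/mL, so that all 4 conditions came from infected, drug-selected populations of a single line. Each shRNA was sampled in cells and in EVs, and the resulting 4 conditions had 2 libraries each. The study asked how PCBP2 affects the partition of miRNAs between the cell and the EVs. The knockdown itself cannot be checked in these libraries, which hold no mRNA.

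miRNAs are short RNAs that guide Argonaute proteins to messenger RNAs, mainly through the seed, bases 2 to 8 of the guide. miR-29 guides are known for repressing mRNAs of the extracellular matrix, among them collagens and elastin. In the liver they are regarded as antifibrotic, with lower levels described in activated hepatic stellate cells and in fibrotic tissue. Guides are also found in EVs, and short sequence motifs have been described that accompany retention in the cell (CELL motifs) or export into EVs (EXO and hEXO motifs).

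The guide sequences are shown because the members differ in only a few bases, which bears both on their reading by sequencing and on the motifs. They are the RefSeq mature sequences for GRCm38.p6, written 5′ to 3′ with the seed in capitals.
miR-29a-3p: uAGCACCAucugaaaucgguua
miR-29b-3p: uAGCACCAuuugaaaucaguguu
miR-29c-3p: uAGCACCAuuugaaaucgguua
The guides have the same seed, which no other mature miRNA with a matched sequence carried (3 of 1679 matched rows). Counting from 1 at the 5′ end, miR-29a-3p and miR-29c-3p differed by a single substitution, C10U. miR-29b-3p and miR-29c-3p differed by A18G, G21U and U22A, and miR-29b-3p is 1 base longer. Reads of miR-29a-3p and miR-29c-3p that do not cover base 10 cleanly cannot be assigned to one of them, so the counts of the less abundant miR-29c-3p are uncertain.

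The guides come from 4 hairpins in 2 clusters. Mir29a lies on chromosome 6 from 31062660 to 31062747 and Mir29b-1 from 31063023 to 31063093 (GRCm38, minus strand), with 275 bases between them. Mir29a overlaps no other annotated gene in GENCODE M21, and Mir29b-1 overlaps only the end of an exon of the lincRNA Gm27019. On the plus strand of chromosome 1, Mir29b-2 lies from 195037040 to 195037120 and Mir29c from 195037547 to 195037634, with 426 bases between them. Both fall in an exon of the non-coding transcript A330023F24Rik and, on the opposite strand, in an annotated exon of Cd46. miR-29b-3p is made from either cluster with the same sequence, so its counts do not tell the hairpins apart.

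The libraries held between 26391248 and 38166798 counts. The cel-miR-39 spike-in took 57.4% to 66.9% of these in cells and 97.6% to 98.4% in EVs, leaving 8745848 to 12732173 mouse miRNA counts per cell library and 503070 to 687592 per EV library. Levels are therefore given as counts per 1000000 spike-in counts, called spike-in units below, and also as counts per 1000000 mouse miRNA counts (CPM), because the amounts of cell and EV material behind a library are not given in the sources used here. A difference between EVs and cells in spike-in units thus includes the difference in material. Of the hepatocyte markers, miR-194-5p was abundant in cells (218474 to 342726 counts), whereas miR-122-5p, the defining hepatocyte miRNA, had only 356 to 485 counts there. The levels of 5 blood and serum miRNAs summed to 3.85 to 11.0 spike-in units in cells and 1137 to 1492 in EVs. miR-451a, miR-144-3p and miR-142a-3p had 0 counts in every cell library and 135 to 4430 counts in every EV library. The 4 mesenchymal markers summed to 6.46 to 21.8 in cells and 83.9 to 169 in EVs. The conditioned medium contained EV-depleted serum, and the part of serum RNA in the EV values was not tested.

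In cells, counts of miR-29a-3p were 27291 and 24139 with shCTR but 11905 and 16490 with shPCBP2. Scaled by the spike-in, these were 1531 and 1534 against 675 and 925 spike-in units. Both shPCBP2 libraries were below both shCTR libraries, and the shCTR libraries were almost equal. Counts of miR-29b-3p were 13653 and 8781 with shCTR but 5060 and 6957 with shPCBP2, or 766 and 558 against 287 and 390 spike-in units. The groups did not overlap here either, but the shCTR libraries stood farther apart. miR-29c-3p was much scarcer, at 384 and 281 counts with shCTR but 141 and 221 with shPCBP2, or 21.5 and 17.9 against 7.99 and 12.4 spike-in units. It showed the same order, with every shPCBP2 library lower.

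In EVs, counts of miR-29a-3p were 717 and 509 with shCTR but 317 and 210 with shPCBP2, which made 25.8 and 19.6 against 8.44 and 6.91 spike-in units. Counts of miR-29b-3p were 497 and 430 with shCTR but 222 and 108 with shPCBP2, which made 17.9 and 16.5 against 5.91 and 3.55 spike-in units. For both guides the shPCBP2 libraries were lower than the shCTR libraries with no overlap. miR-29c-3p was read in a single EV library, with 71 counts (2.56 spike-in units) in EV shCTR replicate 1, and had 0 counts in the other 3. A count of 0 allows up to 3 counts, and all such limits cover counting error only, since no molecular identifiers were used to tell molecules from PCR copies.

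**Figure D1:**
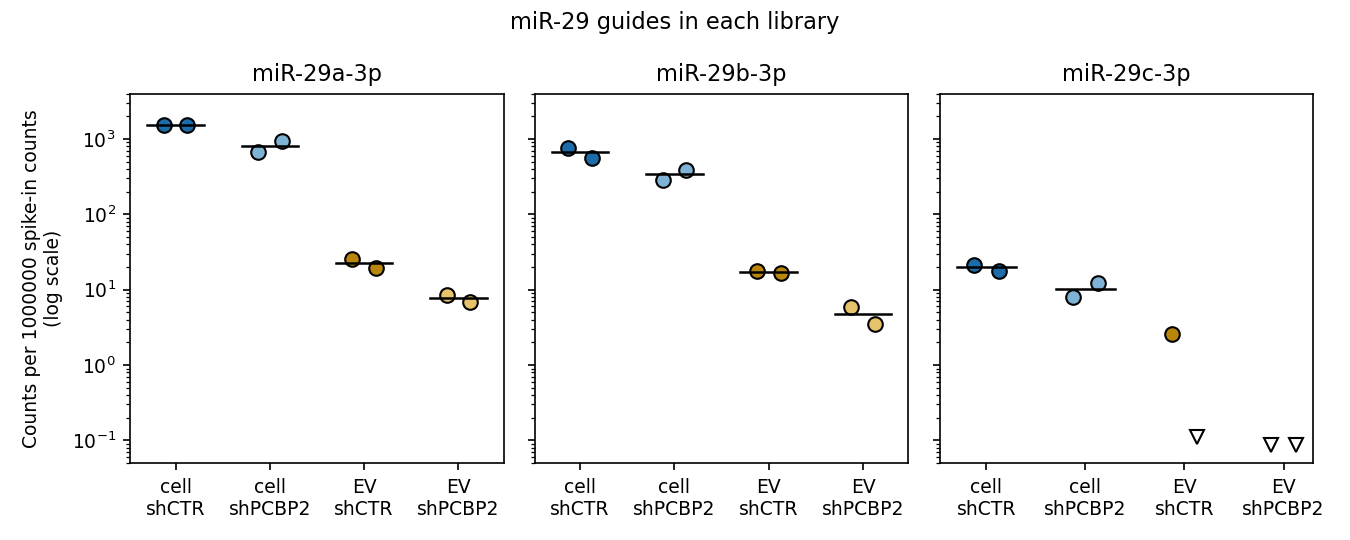
Levels of the 3 miR-29 guides in counts per 1000000 spike-in counts (log axis) in each library, by condition. Points are libraries, bars are means of 2 libraries, and open triangles mark libraries with 0 counts, drawn at the condition's limit of 3 counts. miR-29a-3p and miR-29b-3p have their highest levels in cell shCTR and their lowest in EV shPCBP2, and miR-29c-3p was read in 1 of 4 EV libraries.

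Among the 3 guides the order of levels was miR-29a-3p, miR-29b-3p, miR-29c-3p in all 8 libraries. The guides have almost the same length, so counts compare directly, apart from any ligation preference, which was not tested. In CPM, the cell libraries held 2143 and 2063 of miR-29a-3p with shCTR but 1361 and 1305 with shPCBP2, and the EV libraries 1043 and 920 with shCTR but 512 and 417 with shPCBP2, the 4 conditions lying in the same order as on the spike-in scale and with no overlap between neighbours. For miR-29b-3p the cell libraries held 1072 and 751 CPM with shCTR but 579 and 551 with shPCBP2, and the EV libraries 723 and 777 with shCTR but 359 and 215 with shPCBP2. Here cell shCTR and EV shCTR overlapped, and EV shCTR lay above cell shPCBP2, so the order of the conditions depended on the scale. miR-29c-3p, at 30.2, 24.0, 16.1 and 17.5 CPM in the cell libraries and 103 CPM in the EV library that held it, was higher there than in any cell library. By rank among mouse miRNAs, miR-29a-3p stood at position 52 in both cell shCTR libraries, 58 in both of cell shPCBP2, 85 in both of EV shCTR and 108 in both of EV shPCBP2.

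The comparison of EV shPCBP2 with EV shCTR asks whether the guides differed in vesicles when PCBP2 was depleted. miR-29a-3p was 2.95-fold lower in shPCBP2 EVs (log2 change −1.56 ± 0.30, SE, n = 2 against 2), and the change passed the threshold (adjusted p = 0.0333, from the quasi-likelihood test of edgeR and Benjamini-Hochberg adjustment over 180 tested miRNAs). miR-29b-3p was estimated to be 3.63-fold lower (log2 change −1.86 ± 0.44), a larger estimate with a wider error that did not pass (adjusted p = 0.0662, edgeR). The spread behind both SEs was estimated over all 8 libraries, cells included. Fitted on only the 4 EV libraries, the changes were −1.56 ± 0.72 for miR-29a-3p and −1.86 ± 0.99 for miR-29b-3p. Neither then passed (adjusted p = 0.329 and 0.393, edgeR). In such bulk libraries, fewer vesicles and less of a miRNA per vesicle cannot be told apart, and vesicle numbers were not analysed here. Of the 2 tested guides 1 was called, where 10 of 180 tested miRNAs (5.56%) were called lower and 3 (1.67%) higher. Counted from the most lowered, miR-29b-3p stood at position 13 and miR-29a-3p at position 19 of 180. The median change of all tested miRNAs was −0.54, and relative to it the changes were −1.03 for miR-29a-3p and −1.32 for miR-29b-3p. Groups of 2 libraries that did not overlap were frequent: 76 of 180 miRNAs (42.2%) were lower in both shPCBP2 EV libraries on the spike-in scale and 33 (18.3%) in CPM, with both guides among them on either scale. Some marker levels also differed, with sums taken on the spike-in scale only. The blood and serum miRNAs summed to 1323 to 1492 spike-in units with shCTR but 1137 to 1159 with shPCBP2. Their 2 tested members, miR-486a-5p and miR-223-3p, had estimates of −0.25 and −0.27, less lowered than the median of −0.54. Neither was called (adjusted p = 0.742 and 0.95, edgeR). The mesenchymal sums overlapped (83.9 to 169 against 87.7 to 117). The hepatocyte miRNA miR-192-5p was read 1058 and 62 times with shCTR but 0 times with shPCBP2. Counts of miR-194-5p (4749 and 3938 against 5454 and 3784) and miR-122-5p (2327 and 795 against 1556 and 1872) overlapped. Their part in the result was not tested. An exact permutation test of 2 against 2 libraries cannot give a two-sided p under 0.333.

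The call of miR-29a-3p in EVs depended on the fit. Its log2 change stayed between −1.56 and −1.08 in 9 alternative fits, with adjusted p under 0.05 in 4 of them and a range from 1.27e-06 to 0.404 (a larger prior count, which leaves p as it was, is not counted). Scaled by the total mouse miRNA count, the change was −1.08 with adjusted p = 0.0912 (edgeR), and relative to the median of all tested miRNAs it was −1.05, close to its value on the spike-in scale. With any single library left out it lay between −1.75 and −1.35, with adjusted p from 0.0468 to 0.129. miR-29b-3p had a log2 change between −1.88 and −1.39 in the same 9 alternative fits, with adjusted p under 0.05 in 2 of them. It reached adjusted p = 8.24e-05 in DESeq2, which called 24 of 180 miRNAs (13.3%) lower. It reached 0.00821 in edgeR on the 113 miRNAs with 10 or more counts in every library. The largest adjusted p was 0.46, in limma voom.

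miR-29c-3p did not meet the filter, because only 1 EV library held reads. Against the limit of 3 counts per library, its mean in EV shPCBP2 was at least 14.3-fold lower than in EV shCTR on the spike-in scale and at least 9.55-fold lower in CPM. This rests on EV shCTR replicate 1, since with replicate 2 alone both conditions are at the limit. With no filter the comparison was not called either (adjusted p = 0.337 over 800 miRNAs, edgeR). At its mean ratio to miR-29a-3p in cells, 9.13 and 6.48 counts would have fallen on miR-29c-3p in the EV shCTR libraries and 4.04 and 2.68 in the EV shPCBP2 libraries. The observed 71, 0, 0 and 0 counts therefore stood above this in a single library and under it in the others. Counts between 1 and 40 made up only 3.68% of the non-zero mouse miRNA counts in EVs (28 of 761), against 42.3% in cells (921 of 2179). At this depth the absence of reads from an EV library does not show the absence of the miRNA. An unread miRNA may stand above the limit of 3 counts, and the true differences may be smaller than the bounds.

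In the cells themselves the guides also had lower levels with shPCBP2, by estimates that did not pass. The log2 change was −0.94 ± 0.30 for miR-29a-3p (adjusted p = 0.258, edgeR) and −0.97 ± 0.43 for miR-29b-3p (adjusted p = 0.425). miR-29c-3p, not tested, had a log2 difference of means of −0.98 (pooled SD 0.34, n = 2 against 2). The 3 estimates were close to each other. edgeR called 0 of 180 miRNAs here (0%), with 25 (13.9%) at an unadjusted p under 0.05 and miR-29a-3p among these. DESeq2 called 18 of 173 (10.4%) lower and limma voom 18 of 180 (10%). miR-29a-3p was called by both (adjusted p = 0.0103 and 0.0149) and miR-29b-3p by limma voom (adjusted p = 0.0328). All 3 guides were lower in every shPCBP2 cell library, as were 120 of 180 tested miRNAs (66.7%) on the spike-in scale and 94 (52.2%) in CPM. Sums of cell type markers, taken on the spike-in scale only, were also lower in the same libraries. Blood and serum miRNAs summed to 9.85 to 11.0 spike-in units with shCTR but 3.85 to 5.11 with shPCBP2. Nearly all of this was miR-486a-5p (193 and 155 against 68 and 85 counts), while miR-223-3p had 3 and 0 against 0 and 6 counts. Mesenchymal miRNAs summed to 14.2 to 21.8 against 6.46 to 13.4, and hepatocyte miRNAs to 18677 to 20407 against 13024 to 17055. The most abundant hepatocyte marker, miR-194-5p, had an estimate of −0.37 (adjusted p = 0.502, edgeR). It was less lowered than the median of −0.49 over all tested miRNAs. The mesenchymal miR-145a-5p (10 and 15 counts) and miR-214-3p (32 and 18 counts) were at 0 with shPCBP2, and the part of these markers in the result was not tested. The median of all tested miRNAs was −0.49, and relative to it the estimate for miR-29a-3p was −0.45.

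The EV/cell ratio compares the 2 changes in a single model, as the difference between shPCBP2 and shCTR in log2 EV minus cell level. The estimate was −0.63 ± 0.42 for miR-29a-3p and −0.89 ± 0.61 for miR-29b-3p (adjusted p = 0.987 for each, edgeR). Neither guide was called, where 4 of 180 tested miRNAs (2.22%) were called and 3 (1.67%) of them lower. The lower estimate in EVs than in cells was therefore not separable from the spread between libraries. No alternative fit, with or without a library left out, called a guide for the EV/cell ratio. Over the 9 alternatives with all libraries the smallest adjusted p was 0.283 for miR-29a-3p and 0.436 for miR-29b-3p, both with TMM factors. All of these estimates were below 0. Leaving out 1 library moved them by over 1.5 times, to −0.38 for miR-29a-3p without cell shPCBP2 replicate 2 and to −0.57 for miR-29b-3p without EV shPCBP2 replicate 2, within ranges of −0.84 to −0.38 and −1.31 to −0.57.

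**Figure D2:**
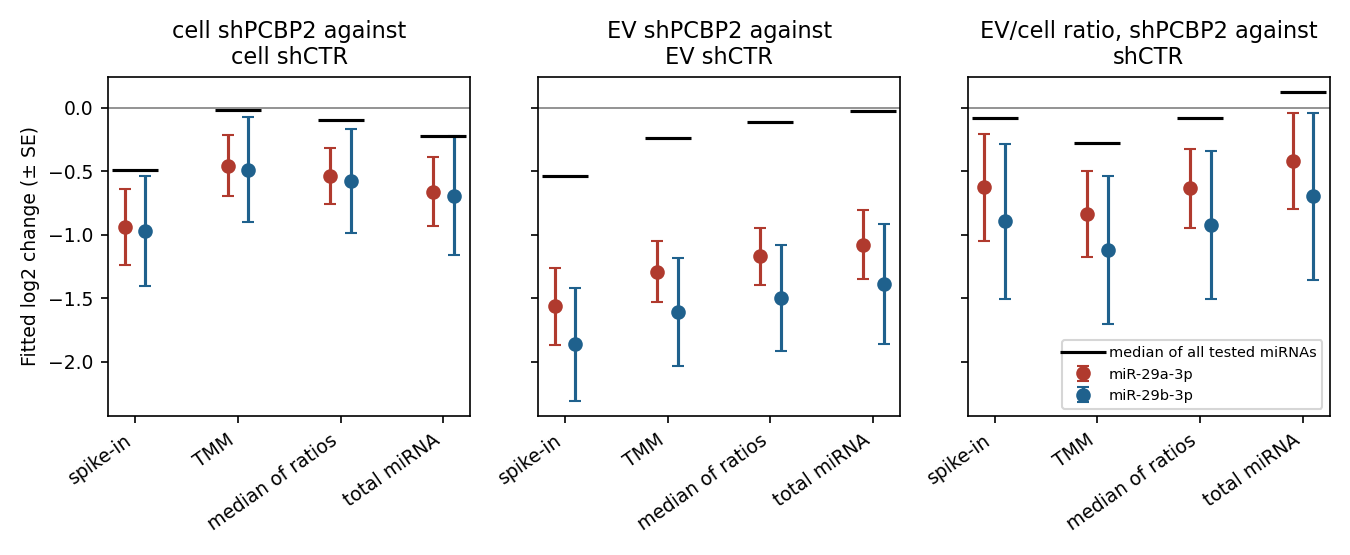
Fitted log2 changes (± SE) of miR-29a-3p and miR-29b-3p in cells, in EVs and for the EV/cell ratio, with libraries scaled by the spike-in, TMM factors, median-of-ratios factors or the total mouse miRNA count. Black bars are the median of the 180 tested miRNAs, and both guides lie below it in every panel and under every scaling.

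**Figure D3:**
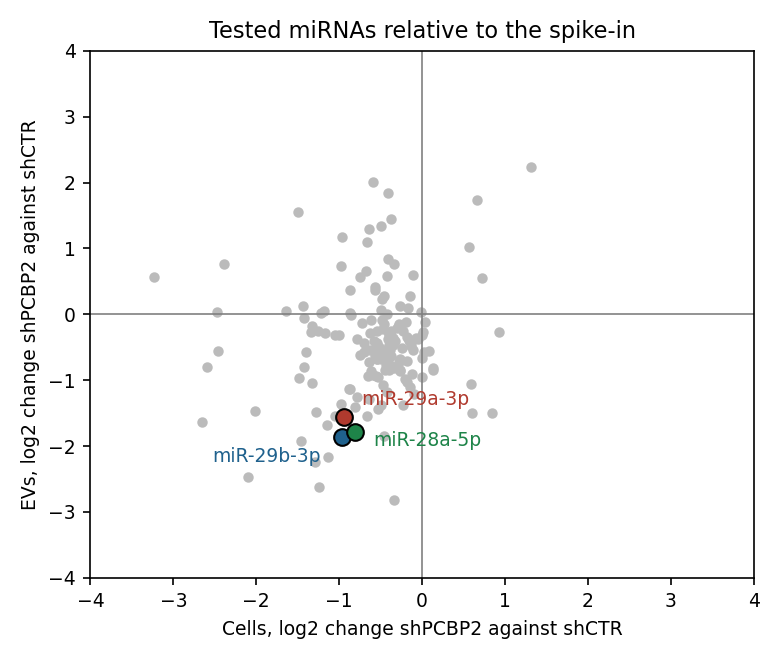
Log2 change of shPCBP2 against shCTR in EVs (vertical) and in cells (horizontal) for the tested miRNAs, relative to the spike-in. Each point is a miRNA, 11 of 180 lie outside the axes, and miR-29a-3p, miR-29b-3p and miR-28a-5p lie close together in the lower left. miR-28a-5p was picked for levels like those of the guides in these libraries.

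Comparing EVs with cells within each shRNA shows where the guides stand in vesicles. On the spike-in scale miR-29a-3p was 67.5-fold lower in EVs than in cells in shCTR (log2 −6.08 ± 0.37, adjusted p = 1.47e-05, edgeR) and 104-fold lower in shPCBP2 (log2 −6.70 ± 0.38, adjusted p = 1.06e-05). miR-29b-3p was 38.5-fold lower in shCTR (log2 −5.27 ± 0.51, adjusted p = 0.00013) and 71.5-fold lower in shPCBP2 (log2 −6.16 ± 0.54, adjusted p = 7.26e-05). These calls are common, since 107 of 180 tested miRNAs (59.4%) were lower in EVs in shCTR and 108 (60%) in shPCBP2, with medians of −4.93 and −4.90. Scaled by the total mouse miRNA count, miR-29a-3p remained lower in EVs, by log2 −1.10 in shCTR (adjusted p = 0.0182, edgeR) and −1.52 in shPCBP2 (adjusted p = 0.00414). miR-29b-3p then differed by −0.28 in shCTR (adjusted p = 0.713) and −0.98 in shPCBP2 (adjusted p = 0.138), neither called. In shPCBP2, the bounds for miR-29c-3p take the limit of 3 counts, which covers counting error only. It was at least 114-fold lower in EVs than in cells on the spike-in scale but only at least 3.11-fold lower in CPM. In shCTR its means were 1.28 spike-in units in EVs and 19.7 in cells, not called with no filter (adjusted p = 0.166, edgeR), and in CPM the EV mean (51.6, from a single library) was above that of cells (27.1).

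The balance between miR-29b-3p and miR-29a-3p within a library does not depend on the scaling. There were 0.500, 0.364, 0.425 and 0.422 counts of miR-29b-3p for each count of miR-29a-3p in the cell libraries, in the order cell shCTR replicates 1 and 2 and cell shPCBP2 replicates 1 and 2. In EVs the corresponding ratios were 0.693, 0.845, 0.700 and 0.514. All 4 EV libraries were above all 4 cell libraries, although EV shPCBP2 replicate 2 exceeded the highest cell library only slightly. The mean log2 ratio was −1.23 ± 0.19 in cells and −0.56 ± 0.30 in EVs (SD, n = 4 each), and is given as a description. Between shCTR and shPCBP2 the ratios overlapped in cells and in EVs. As shares of the family, miR-29a-3p was 66.0% (95% Wilson interval 65.6% to 66.5%), 72.7%, 69.6% and 69.7% in the cell libraries and 55.8%, 54.2%, 58.8% and 66.0% in the EV libraries, the last with an interval of 60.7% to 71.0% on 318 counts. The intervals treat every count as a separate molecule, so they cover counting error only and may be too narrow. miR-29c-3p made up 0.824% to 0.934% of the family in cells.

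**Figure D4:**
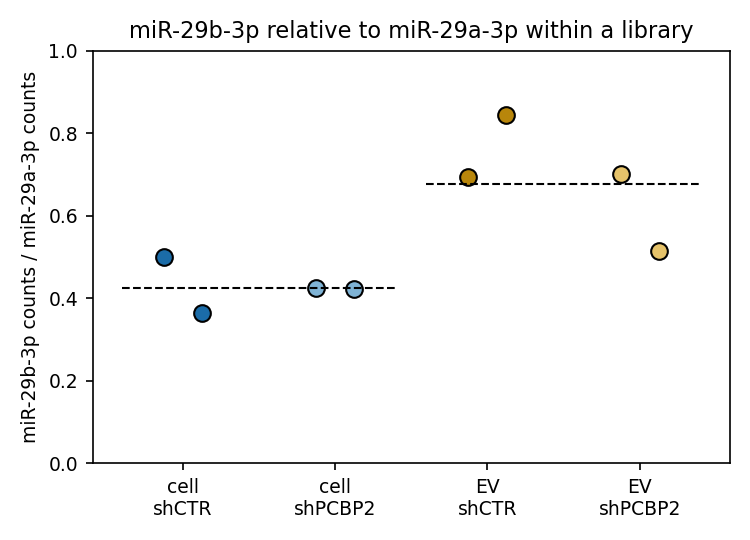
Counts of miR-29b-3p divided by counts of miR-29a-3p in each library, by condition. Points are libraries and dashed lines the geometric means of the 4 cell libraries (0.425) and the 4 EV libraries (0.678), and every EV library lies above every cell library.

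The 5p strands of the same hairpins, the passenger arms, tell the hairpins of miR-29b-3p apart, and their sequences are given for that reason with bases 2 to 8 in capitals.
miR-29a-5p: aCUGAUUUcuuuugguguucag
miR-29b-1-5p: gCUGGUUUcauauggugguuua
miR-29b-2-5p: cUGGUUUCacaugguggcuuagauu
miR-29c-5p: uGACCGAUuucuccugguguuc
In cells, counts of miR-29a-5p were 7342 and 5539 with shCTR but 4521 and 4127 with shPCBP2, those of miR-29b-1-5p 2075 and 2116 against 1428 and 1403, and those of miR-29b-2-5p 144 and 103 against 67 and 107. miR-29c-5p was read 20 and 18 times with shCTR and 16 and 26 times with shPCBP2. The arm of Mir29b-1 thus made up 92.9% to 95.5% of the 5p counts of the miR-29b hairpins in the 4 cell libraries. The 95% Wilson intervals lay between 91.5% and 96.5% and cover counting error only. The share of miR-29b-3p from each hairpin was not measured, since the hairpins may keep their passenger arms to different degrees. Arms of the chromosome 6 cluster were more abundant than those of the chromosome 1 cluster in every cell library. The guide exceeded the passenger arm in every cell library, by 2.63-fold to 4.36-fold for miR-29a, 3.38-fold to 6.15-fold for miR-29b (both 5p arms summed) and 8.50-fold to 19.2-fold for miR-29c.

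**Figure D5:**
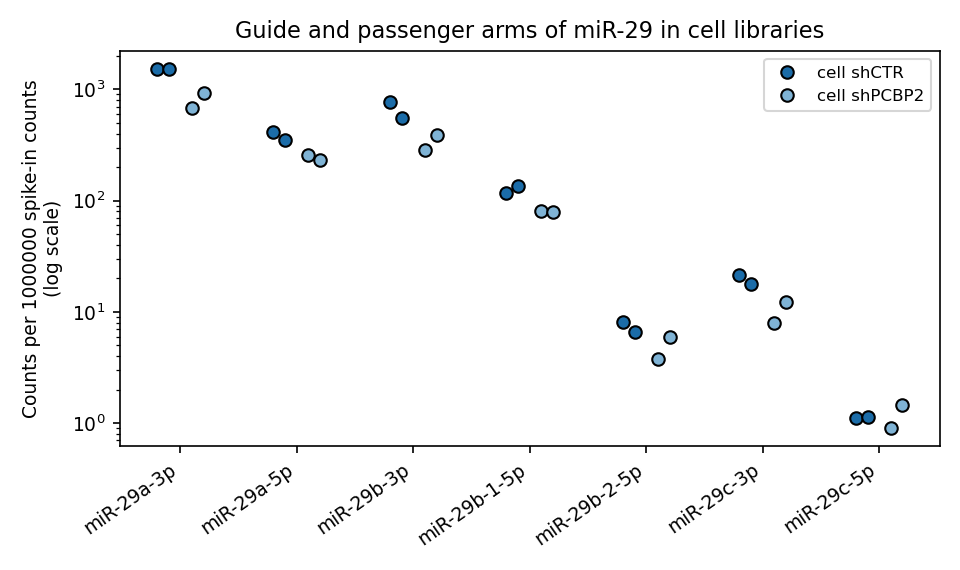
Guide (3p) and passenger (5p) arms of the miR-29 hairpins in the cell libraries, in counts per 1000000 spike-in counts (log axis). Points are libraries, dark for shCTR and light for shPCBP2, and the arms of miR-29a and miR-29b-1 stand above those of miR-29b-2 and miR-29c.

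In EVs the passenger arms were rarely read. miR-29b-1-5p, miR-29b-2-5p and miR-29c-5p had 0 counts in all 4 EV libraries. On the spike-in scale, on which the median tested miRNA is itself far lower in EVs, this places miR-29b-1-5p at least 1124-fold lower in EVs than in cells in shCTR and at least 894-fold lower in shPCBP2, against at least 65.5-fold and 54.9-fold for miR-29b-2-5p and at least 10.1-fold and 13.3-fold for miR-29c-5p. In CPM the bounds shrink to at least 35.1-fold and 25.4-fold for miR-29b-1-5p and to at least 2.06-fold and 1.49-fold for miR-29b-2-5p, and miR-29c-5p has no bound, since its means in cells (1.55 and 1.94 CPM) are under the limit of 3 counts in EVs (4.89 and 5.41 CPM). All these bounds take the limit of 3 counts and cover counting error only. Counts between 1 and 40 made up only 3.68% of the non-zero mouse miRNA counts in EVs. An unread miRNA may thus stand above the limit, and the true differences may be smaller than the bounds. miR-29a-5p was read 0 and 95 times with shCTR and 0 and 58 times with shPCBP2, so that its replicates differed more than its conditions. It met the filter and was not called by edgeR in any contrast (adjusted p = 0.0706 and 0.0636 for EVs against cells in shCTR and shPCBP2), whereas DESeq2 called it lower in EVs than in cells in both (adjusted p = 0.0032 and 0.00211), as did limma voom (adjusted p = 0.00192 and 0.0018). In the 2 EV libraries that held it, the guide exceeded miR-29a-5p by 5.36-fold and 3.62-fold.

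Motifs were searched as letters on the RNA strand of the 1679 mature miRNAs with a matched sequence. The core CELL motifs AUUA and AUUG, present in 42 (2.50%) and 114 (6.79%) of these, occurred in none of the guides or passenger arms of miR-29. GGCU, the core of the hEXO motif recognised by SYNCRIP, was present in 223 (13.3%) and occurred in miR-29b-2-5p from base 16 and in no guide. AGUGUU, at the 3′ end of miR-29b-3p from base 18 and known as a nuclear import element of human miR-29b, was present in 12 (0.715%) and in no other arm of the family. A match or its absence describes these letters only. The study scanned for hEXO, for an extended CELL motif and for the core CELL motif with probability matrices, which can allow other bases at a position. That scan was not run here, so absence of these letters does not show that a guide lacks the motifs as the study assigned them.

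The miRNAs whose levels over the 8 libraries were most like those of a guide were found as the smallest root mean square difference of centred log2 spike-in-scaled levels, among 113 miRNAs with 10 or more counts in every library. For both guides the nearest was miR-28a-5p, at 0.27 log2 units from miR-29a-3p and 0.22 from miR-29b-3p. The guides themselves were 0.40 apart, and the medians over the others were 1.01 and 0.97. let-7i-5p (0.41) and miR-93-5p (0.41) followed for miR-29a-3p, and miR-322-5p (0.44) and miR-298-5p (0.50) for miR-29b-3p. These miRNAs were picked by their levels in the same 8 libraries, so EV changes like those of the guides follow in part from the choice. In EVs, counts of miR-28a-5p were 1529 and 1355 with shCTR but 723 and 363 with shPCBP2. Its log2 change was −1.78 ± 0.33 (adjusted p = 0.0329, edgeR). miR-322-5p changed there by −1.68 ± 0.35 (adjusted p = 0.0396). Neither was called when only the 4 EV libraries were fitted (adjusted p = 0.186 for each). let-7i-5p, miR-93-5p and miR-298-5p had estimates of −0.73, −0.64 and −0.98 that did not pass (adjusted p = 0.222, 0.115 and 0.168).

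Other miRNAs known for a part in liver fibrosis were read beside the family. Of 9 further antifibrotic miRNAs, 6 were tested in EV shPCBP2 against EV shCTR. Of these 0 were called higher and 0 lower by edgeR, 2 had estimates above and 4 below 0, and their median log2 change was −0.36 beside −0.54 over all tested miRNAs. This median was −0.01 without EV shCTR replicate 1, −0.70 without EV shCTR replicate 2, −0.15 without EV shPCBP2 replicate 1 and close to its value with any cell library left out. miR-378a-3p, an estimate above 0, was read 64 and 342 times with shCTR but 456 and 586 times with shPCBP2 (log2 change 1.02 ± 0.88, adjusted p = 0.669), which overlapped once scaled by the spike-in. Counts of miR-122-5p overlapped, at 2327 and 795 with shCTR and 1556 and 1872 with shPCBP2. Of 9 profibrotic miRNAs, 8 were tested, again with 0 called in either direction, 1 estimate above and 7 below 0, and a median of −0.41. miR-21a-5p, which promotes fibrosis in several organs, was read 4951 and 4730 times with shCTR and 5631 and 3750 times with shPCBP2 (log2 change −0.40 ± 0.18, adjusted p = 0.344). miR-221-3p, at 5908 and 4320 against 6237 and 4653 counts, had an estimate of −0.25 (adjusted p = 0.593). In this comparison 0 miRNAs of either list had an unadjusted p under 0.05 in edgeR, and 0 were called by DESeq2 or limma voom. For the EV/cell ratio 0 miRNAs of either list were called by edgeR, and 1, miR-214-3p of the profibrotic list, had an unadjusted p under 0.05 and was called by DESeq2 (limma voom called 0). The medians were 0.29 for the antifibrotic and 0.05 for the profibrotic list beside −0.08 over all tested miRNAs. On the spike-in scale the estimates of miR-29a-3p and miR-29b-3p in EVs were below those of all tested miRNAs of both lists. The closest, miR-101a-3p at −1.50 ± 1.74, had an error that spans both guides. Of the untested miRNAs, miR-19b-3p (antifibrotic) had 59 and 0 EV counts with shCTR and miR-199a-5p (profibrotic) 94 and 0. Both had 0 with shPCBP2. The untested miR-133a-3p and miR-200a-3p had 0 counts in every EV library.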

How the data were processed

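Small RNA from 2 biological replicates per condition was sequenced in 8 libraries after addition of cel-miR-39. The authors trimmed reads (minimum length 10, minimum mean quality 30; FastqToolkit 2.2.5), kept forward reads, aligned them with mirPRo 1.1.4 (NovoAlign) to miRBase 22.1 hairpins plus the spike-in, and deposited raw counts per mature miRNA. No genome build is given in the sources used here. Counts above 999999 are deposited to 6 significant digits. Samples were grouped and numbered by their titles; their descriptions number the shPCBP2 replicates otherwise.

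Tests covered the 180 of 1978 miRNAs that had 1 or more counts in 2 or more libraries of cells and of EVs alike, as in the study's methods. edgeR's quasi-likelihood test was used (prior count 0.125) with spike-in counts as library sizes, the spike-in being no tested feature, and terms for compartment, shRNA and their interaction over all 8 libraries. The study used DESeq2, which is an alternative here. p-values were adjusted by Benjamini-Hochberg over all tested miRNAs of each of 5 contrasts, with a threshold of 0.05. SEs come from the F statistic and are approximate. The common dispersion came to 0.693 (residual degrees of freedom 4, prior 2.10). Recovery of known changes in the EV/cell ratio was tested on simulated data. Few were called at the fitted common dispersion and most at a lower one. A ratio that was not called is therefore not shown to be unchanged. R 4.3.3, edgeR 4.0.16, DESeq2 1.42.0, limma 3.58.1, Python 3.11.15, pandas 2.3.3, numpy 2.4.6, scipy 1.17.1 and matplotlib 3.10.9 were used.

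The miRNAs named are the family, the passenger arms, 2 lists of other fibrosis-related miRNAs, cell type markers and, for each guide with 10 or more counts in every library, the 3 miRNAs of most similar levels. The members and lists were chosen with earlier results of these data known. Sequences were matched by miRNA name to RefSeq (1679 of 1978 rows), and coordinates are those of GRCm38. Alternatives were other scalings (TMM, median-of-ratios, total miRNA count), DESeq2, limma voom, dropping the filter or requiring 10 counts in every library, fitting only the 4 libraries compared, replicate blocks, a larger prior count (2), and leaving out each library.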

Additional observations from a re-analysis of the deposited data

How the results depend on the processing

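No log2 change of miR-29a-3p or miR-29b-3p reversed in any alternative. Of 104 values of the guides under alternatives with all libraries, 88 kept their side of the threshold. These include the values with the larger prior count, which leaves p as it was and so keeps its side by construction. In EV shPCBP2 against EV shCTR, miR-29a-3p was no longer called with the total miRNA count (−1.08), no filter (−1.56, adjusted p = 0.153, edgeR), limma voom (−1.55) or only the 4 libraries compared (−1.56, adjusted p = 0.329). miR-29b-3p was called in DESeq2 (−1.86) and under the filter of 10 counts (−1.86). In cells, miR-29a-3p was called in DESeq2 (−0.94), limma voom (−0.96) and with only the 4 libraries (−0.94, adjusted p = 0.0308), and miR-29b-3p in limma voom (−0.97) and with only the 4 libraries (−0.97, adjusted p = 0.0107). Between EVs and cells miR-29b-3p was not called in shCTR with TMM (−0.50), median-of-ratios (−0.50) or total-count scaling (−0.28), nor in shPCBP2 with total-count scaling (−0.98). The cause was not tested, except that fewer libraries or another set of miRNAs entered some fits.

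The number of called miRNAs for the EV/cell ratio was 4, and 13 with TMM, 2 with median-of-ratios, 0 with at least 10 counts, 14 in DESeq2 and 0 in limma voom. For EVs it was 13, and 7 with no filter, 7 with at least 10 counts, 27 in DESeq2 and 1 with only the 4 libraries. For cells it was 0, and 5 with TMM, 1 with median-of-ratios, 3 with the total count, 8 with at least 10 counts, 18 in DESeq2, 18 in limma voom and 39 with only the 4 libraries. For EVs against cells it was 119 in shCTR and 122 in shPCBP2, and in shCTR 76 with median-of-ratios and 75 with the total count, while no filter gave 294 in each.

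Whether the replicate numbers pair the libraries is not known. The correlations of same-numbered deviations over 113 miRNAs lay between −0.12 and 0.21, with 0.21 between EV shCTR and EV shPCBP2 and 0.18 between cell and EV shPCBP2, so not every pair passed 0.1, and the numbers were not used as a pairing. With the replicate block, miR-29a-3p in EVs was not called (−1.56, adjusted p = 0.0837), and the counts of calls were 1 for the EV/cell ratio (0 with a replicate block by culture) and 2 for EVs. 

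With 1 library left out, a condition rests on a lone library assumed to vary like the others. miR-29a-3p in EVs then ranged from −1.75 to −1.35, called in 3 of 8 fits, and miR-29b-3p from −2.27 to −1.54, called only without EV shPCBP2 replicate 1 (adjusted p = 0.0421). Calls ranged from 1 to 21 in EVs and from 0 to 11 for the EV/cell ratio. miR-29a-5p, read in 1 library of each EV condition, ranged from −8.39 to 7.49 in EVs and from −7.74 to 8.14 for the EV/cell ratio, reversing in 2 fits of each. In CPM, log2 differences of means of miR-29a-3p were −1.10 (EV against cell, shCTR), −1.53 (EV against cell, shPCBP2), −1.08 (EVs, shPCBP2 against shCTR) and −0.66 (cells), and of miR-29b-3p −0.26, −1.02 and −1.43 for the first 3 of these. The median of the further antifibrotic miRNAs in EVs was 0.09 with median-of-ratios and 0.15 with total-count scaling, and that of the profibrotic list −0.05 and 0.05. The EV depth, 503070 to 687592 mouse miRNA counts, limits miR-29c-3p and the passenger arms.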
